A study of Nannochloropsis oceanica with 18 samples.

Results

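H3K36me2 was compared between day 2 (N2) and day 1 (N1) of nitrogen deprivation in the IMET1 strain of *Nannochloropsis oceanica*, a marine microalga that accumulates storage lipid when nitrogen runs out. The comparison used 4 of the 18 labelled chromatin immunoprecipitation sequencing (ChIP-seq) libraries, 2 for N1 and 2 for N2. All 3803 of the 3803 merged regions in the deposited tables entered it. For each library the tables give a pileup, which is the scaled coverage of the immunoprecipitated DNA over the region, and a background, which is the coverage expected there. The ratio of pileup to background is called the H3K36me2 ratio here, and its log2 is the enrichment, both computed after adding 0.5 to pileup and background. The study also profiled H3K27 acetylation (H3K27ac) and lysine crotonylation in the same conditions, and both serve below only to describe the regions.

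Cells of both groups came from nitrogen-replete cultures, were washed, and were moved into nitrogen-free f/2 medium under continuous light weaker than that of the replete cultures. They were collected after 1 day (N1) or 2 days (N2). N1 and N2 thus shared medium, transfer and light, and differed in time without nitrogen and in time in culture, which cannot be told apart because no replete culture of day 1 or 2 was profiled in these libraries. The nitrogen-replete cells taken before the transfer (C0) are given as a reference level. The antibody named in the labels for H3K36me2 has the catalogue number that they also give for H3K27ac, and the study's methods name another antibody for each, so which was used could not be settled.

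H3K36me2 is the dimethylation of lysine 36 on histone H3. It is placed by SET-domain methyltransferases and removed by demethylases, and in many eukaryotes it lies over the bodies of genes, away from the acetylated promoters. H3K27ac marks active promoters and other open chromatin. In yeast, methylated lysine 36 recruits a histone deacetylase to transcribed gene bodies. No gene is assigned to the regions here, since no annotation of the nuclear genome in the tables' build was at hand, so regions are named by chromosome, start and end as deposited.

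The libraries differed in depth. Pileups were whole multiples of 1 step per library in 100% of the regions, and the inverse of the step was 7.29 and 6.69 M fragments in the N1 libraries and 3.59 and 4.40 M in the N2 libraries. The N1 libraries had a median pileup of 22.6 and 23.2 over a median background of 20.4 and 20.8. The N2 libraries had 26.2 and 25.9 over 24.1 and 23.8. The paired C0 libraries held identical values and were used once. The libraries of N1 were distinct, but the differences between them were smaller than counting noise would give (chi-square over degrees of freedom 0.761), as were those between the N2 libraries (0.674). Each condition was therefore counted as 1 sample and no SD between replicates is given. The tests below compare these libraries and not the conditions, and their standard errors and p-values measure how far the paired libraries lie apart. That spread may be technical, although the study calls its replicates biological. The background was nearly the same within a condition (r = 0.999 between the N1 libraries and 1.00 between the N2 libraries over the regions, against 0.831 between N1 and N2), so the spread between libraries carries almost no error of the background. For that reason the calls, the main classes and the named regions are also given for the pileup alone, after the library medians had been made equal. The background was not local everywhere. Centred on library medians, it differed by the same 0.0319 in log2 on chromosomes 4 (506 to 1081), 20 (641925 to 642501) and 1 (1666963 to 1668054). It thus seems to hold a constant value there. Depleted below means only a ratio under 1, and whether low coverage of a region lowers its ratio was not tested.

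The H3K36me2 ratio was more even over the regions in the N2 libraries than in the N1 libraries, while its middle level hardly differed. The median ratio was 1.12 in both N1 libraries and 1.11 in both N2 libraries. The SD of the enrichment over regions was 0.497 and 0.505 in N1 against 0.33 and 0.331 in N2, and it was 0.520 in C0. The N2 libraries were thus narrower than the N1 libraries and the replete library, whose spreads lay close together.

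The narrowing was largest at the low end. A ratio under 0.5 was found in 167 and 179 regions in the N1 libraries and in 163 regions in C0, but in 25 and 28 regions in the N2 libraries. The lowest ratio was 0.142 and 0.131 in N1 and 0.256 and 0.288 in N2. At the high end, 188 and 243 regions had a ratio of at least 1.5 in N1 against 134 and 140 in N2, and 380 did in C0. Both N2 libraries lay beyond both N1 libraries in each of these counts, and at the high end the N1 libraries lay between C0 and N2. The N2 libraries were also the shallower ones, and the part of depth or of the yield of the immunoprecipitation in the narrowing was not tested.

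**Figure D1:**
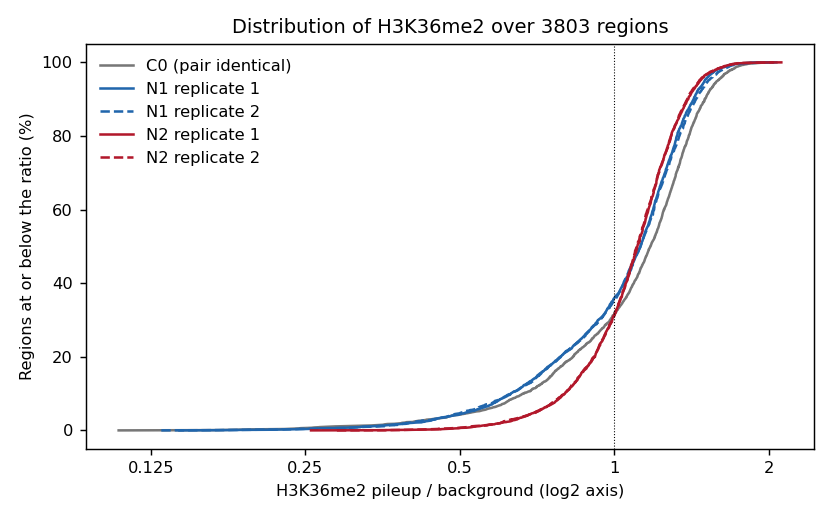
Cumulative share of the 3803 regions (y axis, %) at or below each H3K36me2 ratio (x axis, pileup over background, log2 scale) for C0, whose pair of libraries was identical, and for each N1 and N2 library. The N2 curves are the steepest, with 25 and 28 regions under a ratio of 0.5 against 167 and 179 in N1, and all curves cross their middle at 1.11 to 1.17.

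By limma-trend with Benjamini-Hochberg adjustment over all regions, 1674 regions (44% of those tested) differed at an adjusted p under 0.05. Of these, 1026 were higher in N2 and 648 were lower, which is 27% and 17% of all regions. The median difference over all regions was 0.05 on the log2 scale. The median rise among called regions was 0.44 and the median fall was -0.35, with a median standard error of 0.10 over all regions. At least 2-fold rises were called in 40 regions (1.05%) and 2-fold falls in 0 regions, and no region fell by 2-fold at any p. Both N2 libraries lay above both N1 libraries in 1608 regions (42.3%) and below both in 1170 (30.8%).

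Most rises and about as many falls as not were also called on the pileup alone. On that scale 1012 regions (26.6%) were called higher and 447 (11.8%) lower. Regions called in the same direction on both scales numbered 784 for rises (20.6%) and 351 for falls (9.23%), which is 76.4% of the rises and 54.2% of the falls called as enrichment. Only 1 region was called in opposite directions. The SD of the N2 minus N1 difference over regions was 0.311 for the pileup and 0.144 for the background.

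The rises lay mainly where H3K36me2 was below its background and the falls where it was above. Of the 1026 regions that rose, 774 (75.4%) had a mean N1 ratio under 1, and their median ratio went from 0.750 in N1 to 1.05 in N2, with 0.895 in C0. Of the 648 that fell, 22 (3.40%) had an N1 ratio under 1, and their median went from 1.37 to 1.07, with 1.32 in C0. These levels follow in part from the choice of the regions by the same libraries. The classes formed from C0 below do not share that choice. They are not independent of the narrowing, since C0 correlated with N1 (r = 0.845) and N2 (r = 0.738) over the regions. Rises at low and falls at high C0 levels thus restate in part the narrower spread of N2.

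**Figure D2:**
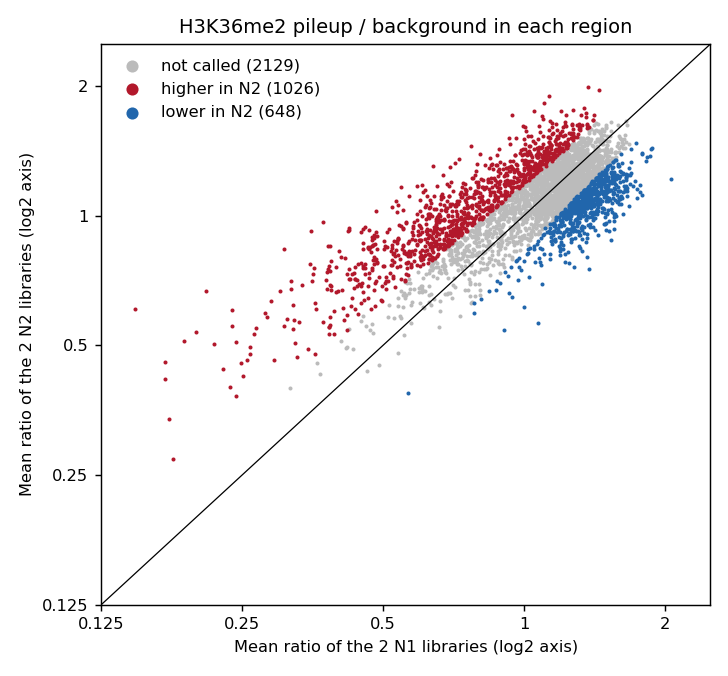
Mean H3K36me2 ratio of the N2 libraries (y axis) against that of the N1 libraries (x axis), both pileup over background on log2 scales, with 1 point per region and the line of equal ratios. The 1026 regions called higher in N2 sit above the line, most of them at N1 ratios under 1, and the 648 called lower sit below it, nearly all at N1 ratios above 1.

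The state of a region in nitrogen-replete cells ordered the calls. Regions were split into quartiles by their H3K36me2 ratio in C0, a library outside the comparison. In the lowest quartile (ratios of 0.108 to 0.907, 951 regions) 528 regions (55.5%) rose and 28 (2.94%) fell, and the median ratio was 0.689 and 0.697 in the N1 libraries against 0.857 and 0.852 in the N2 libraries. In the highest quartile (1.36 to 1.98, 950 regions) 89 (9.37%) rose and 275 (28.9%) fell, and the medians were 1.30 in both N1 libraries against 1.21 and 1.2 in N2. In the main fit the share of rises thus went down and that of falls went up with the replete level. Quantile normalization makes the spreads of the libraries equal. With it, 162, 178, 132 and 81 regions rose from the lowest to the highest quartile, so rises were most numerous in the second. The falls kept their order, with 77, 115, 158 and 204.

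The middle quartiles lay between these, with 260 rises and 136 falls in the second and 149 rises and 209 falls in the third. The median differences from the lowest to the highest quartile were 0.34, 0.07, -0.04 and -0.09. On the pileup alone they were 0.38, 0.08, -0.01 and -0.08, so the order was the same without the division by background. On both scales at once, 462 regions rose and 11 fell in the lowest quartile, against 45 and 156 in the highest.

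The regions most depleted of H3K36me2 in replete cells showed the rise most often. Of the 163 regions with a C0 ratio under 0.5, 115 rose and 2 fell, and 124 rose on the pileup alone. Their median ratio was 0.448 and 0.434 in the N1 libraries and 0.660 and 0.639 in the N2 libraries, so that they stayed below background on day 2. Of the 380 regions with a C0 ratio of at least 1.5, 119 fell and 30 rose, and their medians were 1.34 in both N1 libraries against 1.23 and 1.22 in N2.

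Acetylation separated the regions in another way. Of the 1032 regions without H3K27ac in replete cells (ratio under 1), 133 (12.9%) rose and 356 (34.5%) fell, with a median difference of -0.13. Their median H3K36me2 ratio was 1.34 in C0, 1.23 and 1.24 in the N1 libraries and 1.12 in both N2 libraries. Regions with weak H3K27ac (1 to under 2) went the other way, with 189 rises (42.7%) and 45 falls (10.2%) among 443 regions and a median difference of 0.23. They had a lower H3K36me2 ratio, with medians of 0.788 in C0, 0.797 and 0.796 in N1 and 0.923 in both N2 libraries.

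Among the more strongly acetylated regions, 553 of 1726 rose and 175 fell at an H3K27ac ratio of 2 to under 4, and 151 of 602 rose and 72 fell at 4 or more. On the pileup alone, from the unacetylated to the most acetylated class, 114, 215, 538 and 145 regions rose and 244, 34, 105 and 64 fell. When the classes were formed from the H3K27ac ratio in N1, the unacetylated class again held more falls than rises (365 against 164 of 1090). That class uses the background of N1, with which the H3K36me2 difference is also computed, so the C0 classes are the ones described.

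The split by both replete marks at once was as follows. In the lowest H3K36me2 quartile, rises exceeded falls in every H3K27ac class, from 65 against 3 of 106 regions without H3K27ac to 56 against 1 of 99 regions with a ratio of 4 or more. In the second quartile the direction differed by acetylation. Of its 135 regions without H3K27ac, 8 rose and 56 fell, whereas 169 rose and 50 fell of its 547 regions at 2 to under 4. In the highest quartile 191 of 485 regions without H3K27ac fell and 32 rose, and 50 fell and 39 rose of 281 at 2 to under 4.

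**Figure D3:**
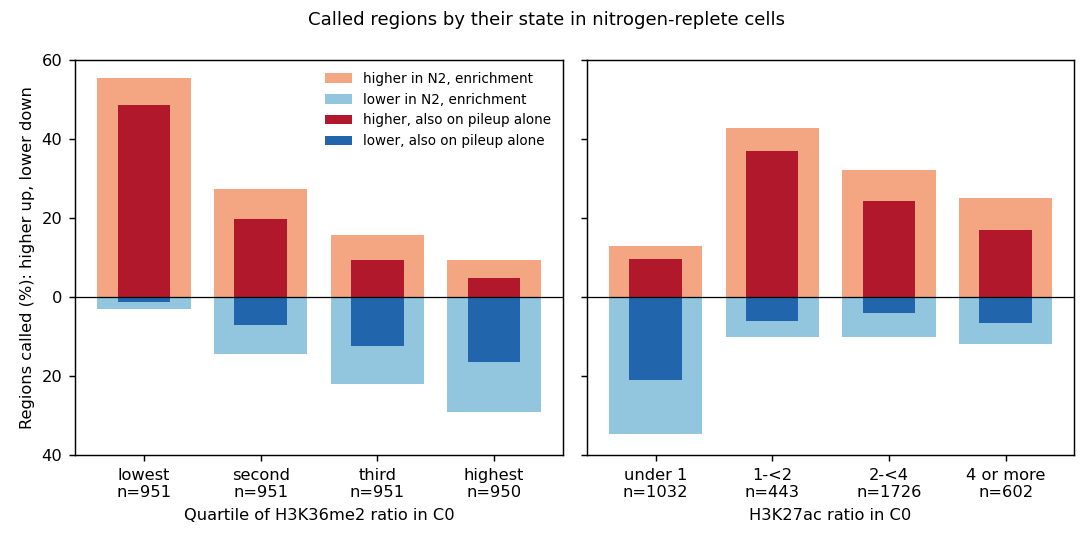
Share of regions called higher (upward bars) or lower (downward bars) in N2 (y axis, % of the class) by quartile of the H3K36me2 ratio in C0 and by the H3K27ac ratio in C0 (x axes, number of regions under each class). Wide bars are calls as enrichment and narrow bars those also called on the pileup alone. Rises go from 55.5% in the lowest to 9.37% in the highest quartile, and falls exceed rises in the regions without H3K27ac.

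The largest rises were at short regions whose H3K36me2 ratio was far below 1 on day 1. On chromosome 23 (594 to 1534) the ratio was 0.167 and 0.131 in the N1 libraries and 0.592 and 0.624 in the N2 libraries, which is a rise of 2.04 ± 0.19 (SE) in log2. At 1270136 to 1270670 of chromosome 9 it was 0.186 and 0.236 in N1 and 0.673 and 0.663 in N2 (1.67 ± 0.18). All N2 values were above those of N1, as the choice of the regions required, and still below the background.

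On chromosome 10 (1558 to 2294) the ratio was 0.182 and 0.193 in N1 against 0.535 and 0.487 in N2, and on chromosome 7 (788637 to 789057) it was 0.292 and 0.323 against 0.859 and 0.814. Both rose by 1.44 on the log2 scale (SE 0.19 and 0.15), and their C0 ratios of 0.269 and 0.385 lay above N1 and below N2. The other 4 of the 8 largest rises, on chromosomes 18 (2332 to 3056), 20 (641925 to 642501), 29 (216236 to 218823) and 19 (237710 to 239098), were 1.43, 1.42, 1.39 and 1.38. They differed in acetylation. The H3K27ac ratio in N1 was 0.258 at the region on chromosome 18, 2.45 on chromosome 20, 4.06 on chromosome 29 and 1.29 on chromosome 19. In N2 it was 0.587, 2.26, 3.35 and 1.28. At the rises on chromosomes 23, 9, 10 and 7 the H3K27ac ratio went up as well. It was 0.191, 0.202, 0.307 and 0.557 in N1 and 0.598, 0.560, 0.898 and 0.748 in N2. The crotonylation ratio there was 0.444, 0.484, 0.731 and 0.592 in N1 and 0.754, 0.898, 1.34 and 0.731 in N2. On chromosome 18 it was 0.756 and 0.828. At these regions a low ratio in N1 was thus not particular to H3K36me2. On chromosomes 20, 29 and 19 crotonylation was 1.53, 2.83 and 1.28 in N1 and 1.11, 2.55 and 1.81 in N2. The adjusted p by limma was at most 4.01e-08 at these 8 regions, and all 8 also rose on the pileup alone, by 1.18 to 1.65.

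The 40 regions that rose by at least 2-fold resembled these. Their mean ratio was at most 0.638 in N1 and at most 1.30 in N2, and in 35 of them it was under 1 on both days. Of the 40, 38 were in the lowest quartile of H3K36me2 in C0, 35 were shorter than 3 kb, and all 40 were called on the pileup alone. They were spread over 21 of the 30 chromosomes. For H3K27ac in N1, 17 had a ratio under 1 and 13 a ratio of at least 2. Over all 3803 regions, 1090 had a ratio under 1, 1974 one of 2 to under 4 and 193 one of 4 or more. By width, 535 of all regions were under 1 kb and 1366 were 1 to under 3 kb.

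Of the 8 largest falls, all but the one on chromosome 19 began above the background. On chromosome 2 (619597 to 620747) the ratio was 1.07 in both N1 libraries and 0.538 and 0.593 in the N2 libraries, a difference of -0.92 ± 0.12. On chromosome 26 (637897 to 642434) it was 1.36 and 1.39 in N1 and 0.767 and 0.736 in N2 (-0.87 ± 0.11). Both regions went from above to below the background, with C0 ratios of 0.849 and 1.17 between the values of the deprived libraries.

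A broad region of 13431 bp on chromosome 7 (470142 to 483572) held the highest ratio of the mark in either N1 library. It was 2.07 and 2.05 in N1 and 1.14 and 1.29 in N2 (-0.77 ± 0.09), against 1.58 in C0. The region on chromosome 14 (33332 to 34643) had 1.47 and 1.59 in N1 and 0.870 and 0.888 in N2 (-0.80 ± 0.10). N1 lay above C0 and N2 below it at both.

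The other 4 of the 8 largest falls were -0.76 to -0.74, on chromosomes 4 (506 to 1081), 7 (720958 to 722781), 19 (605862 to 607298) and 7 (272276 to 285991). The last of these was not called on the pileup alone, where its difference was -0.13 and the background differed by 0.59. The other 7 were called there as well. The adjusted p by limma was at most 5.55e-06 over the 8 falls.

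Some regions rose from near background to ratios that few regions reach. On chromosome 2 (132155 to 142761) the ratio was 0.936 and 0.946 in N1 against 1.83 and 1.60 in N2 (0.86 ± 0.09). This was the only region under 1 in both N1 libraries and at least 1.5 in both N2 libraries. On chromosome 4 (1498017 to 1500488), the last region of that chromosome, it was 1.09 and 1.18 in N1 and 1.85 and 1.93 in N2 (0.74 ± 0.09). On chromosome 9 (107001 to 115486) it was 1.01 and 1.10 in N1 and 2.12 and 1.44 in N2 (0.73 ± 0.10). The N2 libraries stood further apart there than at the other named rises, and still above both N1 libraries. The SE, pooled over regions, does not reflect that gap.

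The same region of chromosome 9 was strongly acetylated and crotonylated in N1, with an H3K27ac ratio of 9.48 in N1 and 7.68 in N2 and a crotonylation ratio of 5.23 and 2.81. The other rises to at least 1.5, on chromosomes 16 (87661 to 91323), 30 (137074 to 138583) and 23 (324515 to 333273), were 0.73, 0.70 and 0.69. All 6 were called on the pileup alone. Their H3K27ac ratio in N1 was between 1.23 and 9.48, so that each was above 1. Over all 3803 regions its median was 2.26, and 1090 regions were under 1. In all, 79 regions with a mean N2 ratio of at least 1.5 rose and 140 with a mean N1 ratio of at least 1.5 fell. Of the 190 regions at 1.5 or more in N1 and the 123 in N2, 12 were the same.

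The reverse crossing, from at least 1.5 in both N1 libraries to under 1 in both N2 libraries, was found in 3 regions. On chromosome 10 (1089080 to 1091992) the ratio was 1.53 and 1.5 in N1 and 0.961 and 0.883 in N2 (-0.72 ± 0.10). On chromosome 6 (56325 to 59644) it was 1.58 and 1.53 in N1 and 0.954 and 0.985 in N2 (-0.68 ± 0.09). The third was the region on chromosome 7 (272276 to 285991) that was not called on the pileup alone, at 1.58 and 1.53 in N1 and 0.918 and 0.941 in N2. The fall on chromosome 1 (1666963 to 1668054), from 1.69 and 1.55 to 1.03 and 0.978, did not cross fully.

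**Figure D4:**
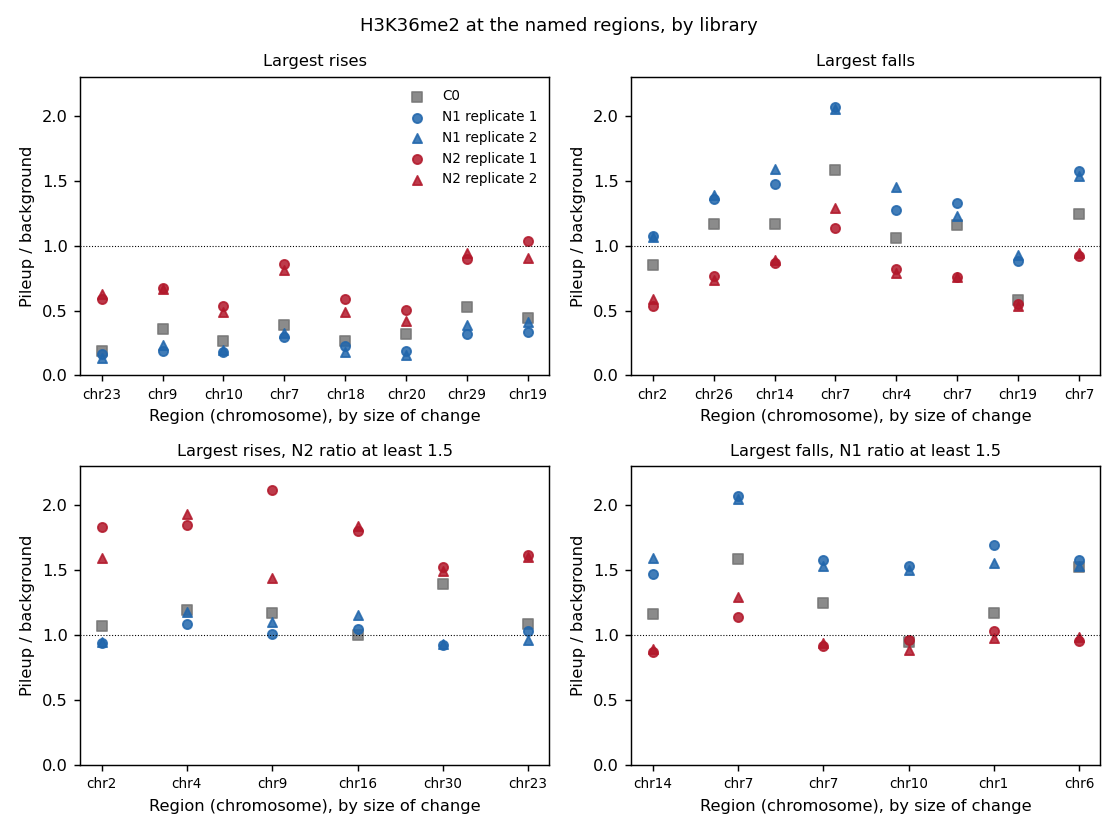
H3K36me2 ratio (y axis, pileup over background) in C0 and in each N1 and N2 library at the 8 largest rises and falls, the 6 largest rises with a mean N2 ratio of at least 1.5 and the 6 largest falls with a mean N1 ratio of at least 1.5 (x axis, ordered by size of change). The 8 largest rises stay at or below about the background in N2. The regions were chosen so that N1 and N2 do not overlap.

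A call was followed by one of the same direction about as often as such calls occur among all regions. Of 1013 called rises that had a following region on their chromosome, 293 (28.9%) were followed by another rise and 172 (17.0%) by a fall. Of 643 falls, 105 (16.3%) were followed by a fall and 177 (27.5%) by a rise. Among all regions 27% were called higher and 17% lower. Runs of at least 4 neighbouring calls numbered 23 for rises, with 108 regions, and 6 for falls, with 26 regions.

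The longest stretch of rises, on chromosome 18, held 6 regions over 109 kb (2332 to 111491) from the start of that chromosome's regions inward. Their mean ratio was 0.199 to 0.318 in N1 and 0.463 to 0.706 in N2, with differences of 0.85 to 1.43, and C0 ratios of 0.244 to 0.296. At 57664 to 59211, for example, the ratio was 0.279 and 0.285 in N1 and 0.544 and 0.621 in N2. The regions of this run were depleted of H3K27ac too, at 0.258 to 0.866 in N1 and 0.448 to 0.826 in N2. At its first region the H3K27ac ratio went from 0.258 to 0.587.

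A second run of 6, on chromosome 9 (1234633 to 1288873, 54.2 kb), ended at the last region of its chromosome. The mean ratio was 0.210 to 0.325 in N1 and 0.401 to 0.668 in N2. H3K27ac was higher in N2 here too, at 0.202 to 0.315 in N1 and 0.451 to 0.562 in N2. All 6 regions of both runs were called on the pileup alone. Of 6 runs of this length, the third in extent, on chromosome 4 (1246585 to 1292562), was unlike them, with N1 ratios of 0.383 to 1.37, H3K27ac ratios of 1.88 to 4.99 and 4 of 6 regions called on the pileup alone. One of its regions, 1258348 to 1268245, went from 1.45 and 1.29 in N1 to 1.93 and 2.05 in N2.

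The longest runs of falls had 5 regions. On chromosome 6 (1311514 to 1327915) they lay within 16.4 kb, the mean ratio was 0.808 to 1.58 in N1 and 0.642 to 1.10 in N2, and all 5 were called on the pileup alone. On chromosome 13 (600255 to 667390, 67.1 kb) the ratio was 1.2 to 1.43 in N1 and 0.968 to 1.15 in N2, with H3K27ac ratios of 2.71 to 4.56, and 3 of 5 were called on the pileup alone. On chromosome 14 (568172 to 602717) a run of 4 had 1 region called on the pileup alone.

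**Figure D5:**
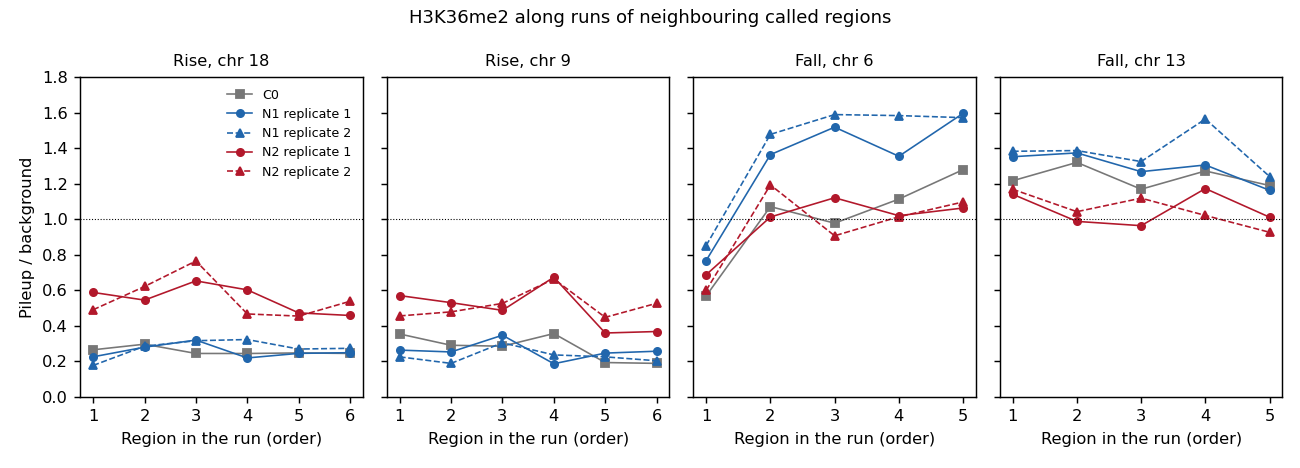
H3K36me2 ratio (y axis, pileup over background) at each region of 2 runs of rises (chromosomes 18 and 9, 6 regions each) and 2 runs of falls (chromosomes 6 and 13, 5 regions each), by order along the chromosome (x axis), in C0 and each deprived library. In the runs of rises all N1 values are below all N2 values of the same region, and in the runs of falls N1 lies above N2.

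Rises were more frequent in short regions and on small chromosomes. Among regions of 1 to under 3 kb, 509 of 1366 rose and 199 fell, with a median difference of 0.15, and among regions under 1 kb 187 of 535 rose and 118 fell (0.09). Of the 1423 regions of 3 to under 12 kb, 273 rose and 259 fell (-0.0094). Of the 479 regions of 12 kb or more, 57 rose and 72 fell, with a median difference of -0.0015. Falls were also most frequent under 1 kb, at 22.1% against 17.0% of all regions. These medians depended on the setting. For regions under 1 kb the median turned to -0.08 with quantile normalization, and among regions at or above the median mean enrichment it was -0.17 under 1 kb and -0.11 at 1 to under 3 kb. On the pileup alone, 192 regions rose and 72 fell under 1 kb, 514 and 131 at 1 to under 3 kb, and 48 and 49 at 12 kb or more. Short regions were also lower in H3K36me2, with a median C0 ratio of 0.979 at 1 to under 3 kb against 1.28 at 12 kb or more.

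The 30 chromosomes become shorter with their number, judged by the end of their last region, except that chromosome 19 ends before 20 and 21. On chromosomes 1 to 10, 354 of 1603 regions rose and 303 fell, on chromosomes 11 to 20 it was 346 and 217 of 1247, and on chromosomes 21 to 30 it was 326 and 128 of 953. On the pileup alone these were 349 and 210, 335 and 148, and 328 and 89. Chromosomes 21 to 30 also had a lower median C0 ratio than chromosomes 1 to 10 (1.11 against 1.22) and shorter regions (median 2287 against 3686 bp). These traits and chromosome length were not separated. The median difference per chromosome ranged from -0.03 on chromosome 8 to 0.18 on chromosome 28. Rises outnumbered falls on 27 chromosomes, and falls outnumbered rises on 3. Among the 60 outermost regions, 1 at each end of the 30 chromosomes, 22 (36.7%) rose and 7 (11.7%) fell, and 3 of the 8 largest rises were outermost regions. By distance to the outermost end, 57 of 181 regions rose and 30 fell within 20 kb, 263 and 121 of 768 at 20 to under 100 kb, and 706 and 497 of 2854 at 100 kb or more. The median differences were 0.09, 0.11 and 0.03. The share of rises was 31.5%, 34.2% and 24.7% in these classes, below the 36.7% of the outermost regions themselves.

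The other marks differed by other amounts over the called regions. At the 784 rises called on both scales, the median N2 minus N1 difference in pileup, with equal library medians, was 0.49 for H3K36me2, 0.13 for H3K27ac and 0.01 for crotonylation, against 0.06, 0.13 and -0.10 over all regions. At the 351 falls it was -0.35 for H3K36me2, 0.61 for H3K27ac and -0.21 for crotonylation. The H3K27ac pileup was higher in N2 at 275 of those 351 regions, against 510 of the 784 rises and 2437 of all 3803 regions. The median H3K27ac ratio of the falls was 0.603 in N1 and 0.771 in N2, below background on both days. Over all regions it went from 2.264 to 1.877, and at the rises from 2.225 to 1.906. These H3K27ac medians thus all lay closer to background in N2, from below only at the falls. The pileup differences are relative to library medians, and the part of this shift in them was not tested. In C0 the median H3K27ac ratio of the falls was 0.549, against 2.55 at the rises and 2.55 over all regions. Among the 8 largest H3K36me2 rises, the H3K27ac pileup rose by 1.53, 1.35, 1.68 and 1.23 on chromosomes 23, 9, 10 and 18. The H3K27ac ratio there was at most 0.307 in N1. On chromosomes 7, 20, 29 and 19 that pileup rose by 0.45, 0.20, 0.12 and 0.07. A higher H3K27ac pileup in N2 was thus not confined to the falls. These differences were not tested.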

How the data were processed

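ChIP-seq of H3K36me2, H3K27ac and lysine crotonylation was carried out by the study in C0, N1 and N2 cells. The submitters' processing notes and the methods name Trim Galore for trimming, BWA for alignment, Picard for duplicates, deepTools, and MACS2 for broad peaks over input. The methods name the *N. oceanica* reference genome for ChIP-seq without its version, which they give only for other assays. Tool versions and the way peaks were merged into regions are likewise not stated. The authors deposited, per library and region, a coverage signal (pileup) and the background (lambda), both scaled by depth. They are not read counts, so no count test was run. Pileups were whole multiples of a step within a tolerance of 0.05 of a step. All 9 tables hold the same values. The authors' fold changes, p-values and status columns were not used, nor were 36 columns of 12 libraries with no label here.

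Enrichment was log2(pileup + 0.5) minus log2(lambda + 0.5), which understates changes of low values. limma 3.58.1 (R 4.3.3) was fitted with a trended prior to the 4 libraries (2 residual and 68.5 prior degrees of freedom), without a filter, two-sided, with Benjamini-Hochberg adjustment over 3803 regions and a threshold of 0.05. The procedure was tested on simulated data. It met the recovery set for it with noise drawn from the variances that limma itself had fitted, which replaced a first simulation. In that one, noise drawn from each region's own, more dispersed spread between libraries gave fewer recovered changes than the mark, so sensitivity may be lower than the fitted model gives. With 2 libraries against 2, an exact two-sided permutation test cannot go below p = 0.333, so none was used. Classes were described without a test. Named regions were the 8 largest rises and falls among called regions whose libraries do not overlap, the 6 largest with a mean ratio of at least 1.5 in the higher group, regions crossing from under 1 to at least 1.5 or back, and the 3 longest runs each way, ties in number going to the longer stretch. Regions, classes and rules were chosen with earlier results of these data known. The classes by H3K27ac in C0, the outermost regions and the calls on both scales were added after seeing the data. Alternatives changed the pseudocount, background, scaling, filter, variance model and libraries. Figures were drawn with matplotlib 3.10.9.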

Additional observations from a re-analysis of the deposited data

How the results depend on the processing

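The balance of rises and falls depended on the scaling. On the pileup alone without centring, 2014 regions were higher and 90 lower, with a median difference of 0.2473 (801 higher and 6 lower in the lowest quartile of C0 H3K36me2, 281 and 34 in the highest). With quantile normalization there were 553 higher and 554 lower (0.0039), with 162 higher and 77 lower in the lowest quartile. Among regions at or above the median mean enrichment there were 265 higher and 458 lower (-0.0551), with 9 and 6 in the lowest quartile, of which few regions pass that filter. The 1012 and 447 calls on the pileup with equal library medians had a median of 0.0638 and 15 falls in the lowest quartile, and 351 falls were called on both scales. The median difference was 0.07 with equal library medians, 0.0646 with equal medians and spreads (935 higher and 488 lower), 0.045 with a pseudocount of 2, and 0.01 above the 10th percentile of pileup, where 294 regions of the lowest quartile rose.

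Without 1 library, rises numbered 715 to 826, falls 375 to 527 and the median difference 0.045 to 0.049. Falls were 390 without N1 replicate 1 and 375 without N1 replicate 2. In the lowest quartile rises were 381 to 413 and falls 13 to 29, and in the highest 52 to 71 and 163 to 226. The replicate numbers did not pair the libraries (r = -0.02 between same-numbered deviations), and the fit with a replicate block called 1026 regions higher and 624 lower. At an adjusted p under 0.01, 727 were higher and 434 lower.

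Of the 403 values of the 25 named regions under the alternatives, 399 kept direction and call. On the pileup alone the region on chromosome 7 (272276 to 285991) reversed to 0.0574. Of 187 medians of the classes by width, position and H3K27ac in N1 under the alternatives, 29 changed sign. The depths of 3.59 and 4.40 M in N2 limit what can be said of regions with low pileup.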
